A study of Mus musculus with 6 samples.

Results

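The genes described here carry out the synthesis of fatty acids and of triglycerides. They are 39 symbols, chosen by name from textbook roles and grouped by step, out of 19893 symbols that had a count in all 6 libraries. Each symbol is represented by the transcript with the highest mean count among those with a count in all 6 libraries. All 39 had such a transcript, 37 had enough counts to be tested, and the elongase genes Elovl2 and Elovl3 did not.

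The libraries came from mammospheres, cell clusters grown on non-adherent plates, of MMTV-HER2/Neu mice on the FvB background. In this line the promoter of mouse mammary tumour virus drives the Neu (ErbB2) oncogene in mammary epithelium, and both groups carry it. The early lesion (EL) spheres, 3 libraries, were grown from mammary glands of mice aged 14 to 18 weeks with no palpable tumour, although their tissue label also names lung. The primary tumour (PT) spheres, 3 libraries, were grown from tumours of mice older than 20 weeks, so age and stage cannot be told apart. All spheres were kept in culture for 7 days. The labels name no animal for any library, so the tests see only how far these libraries differ from one another, which may be a technical spread.

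Fatty acids are built in the cytosol from citrate. ATP citrate lyase (Acly) cuts citrate to acetyl-CoA, acetyl-CoA carboxylase (Acaca) makes malonyl-CoA, and fatty acid synthase (Fasn) joins the units to palmitate. Elongases and desaturases then lengthen the chain and add double bonds, acyl-CoA synthetases activate it, and acyltransferases and phosphatases attach it to glycerol. In the lactating mammary gland the pathway is driven by SREBP-1, and the fat leaves the cell as droplets wrapped in membrane.

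Total counts ran from 69759793 to 85126630 per library, and the table of EL replicate 1 broke off before its end. No member was lost through this, though Acsl4 kept only 2 of its 3 transcript rows. The groups also differed in cell markers, which bears on every value that follows. Fibroblast markers summed to between 64270 and 68410 CPM (counts scaled to the same total of 1e+06 per library, with TMM factors) in EL and to between 633 and 759 CPM in PT, and all 8 fell. All 6 endothelial markers fell as well. Of 5 tested macrophage markers 4 rose, among them C1qb and C1qc of complement, with a median log2 fold change of 2.80 over the 5 and a summed level of 26.6 to 34.5 CPM in EL and 101.9 to 118.4 CPM in PT. All 7 luminal epithelial markers rose, from summed levels of 2066 to 2124 CPM to 7596 to 7927 CPM, with a median log2 fold change (log2FC, PT over EL) of 2.01. In bulk RNA, fewer cells of a type and less RNA per cell cannot be told apart, and the part of cell mixture in the results was not tested.

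The module split. In PT spheres the regulators Srebf1, Mlxipl and Thrsp rose, and so did the desaturase Scd1, the elongase Elovl7 and the synthetases Acsl4 and Acsl1. Fasn and Acaca rose by less, and the desaturase Fads1, the elongase Elovl4 and the synthetase Acsl3 fell. By edgeR's quasi-likelihood test 18 of the 37 tested members were higher in PT and 15 lower, at an adjusted p under 0.05. Among all 13844 genes tested 80.7% were called, 39.9% higher and 40.8% lower, so a call by itself says little here. Scaling by library totals alone moved log2FC values up by a median of 0.25. The members then counted 25 higher and 6 lower, where 57.1% of all genes were higher and 29.7% lower. The median log2FC of the members was 0.018, that of all genes 0.0049. Changes of at least 2-fold were found for 10 members, 7 higher and 3 lower, where 9.43% of all genes were higher and 19.4% lower by that much. A test against a 2-fold minimum called 6 members higher and 3 lower, against 7.3% and 17.3% of all genes. For 33 of 37 members no EL value lay within the PT range or the reverse, which held for 82.7% of all genes.

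**Figure D1:**
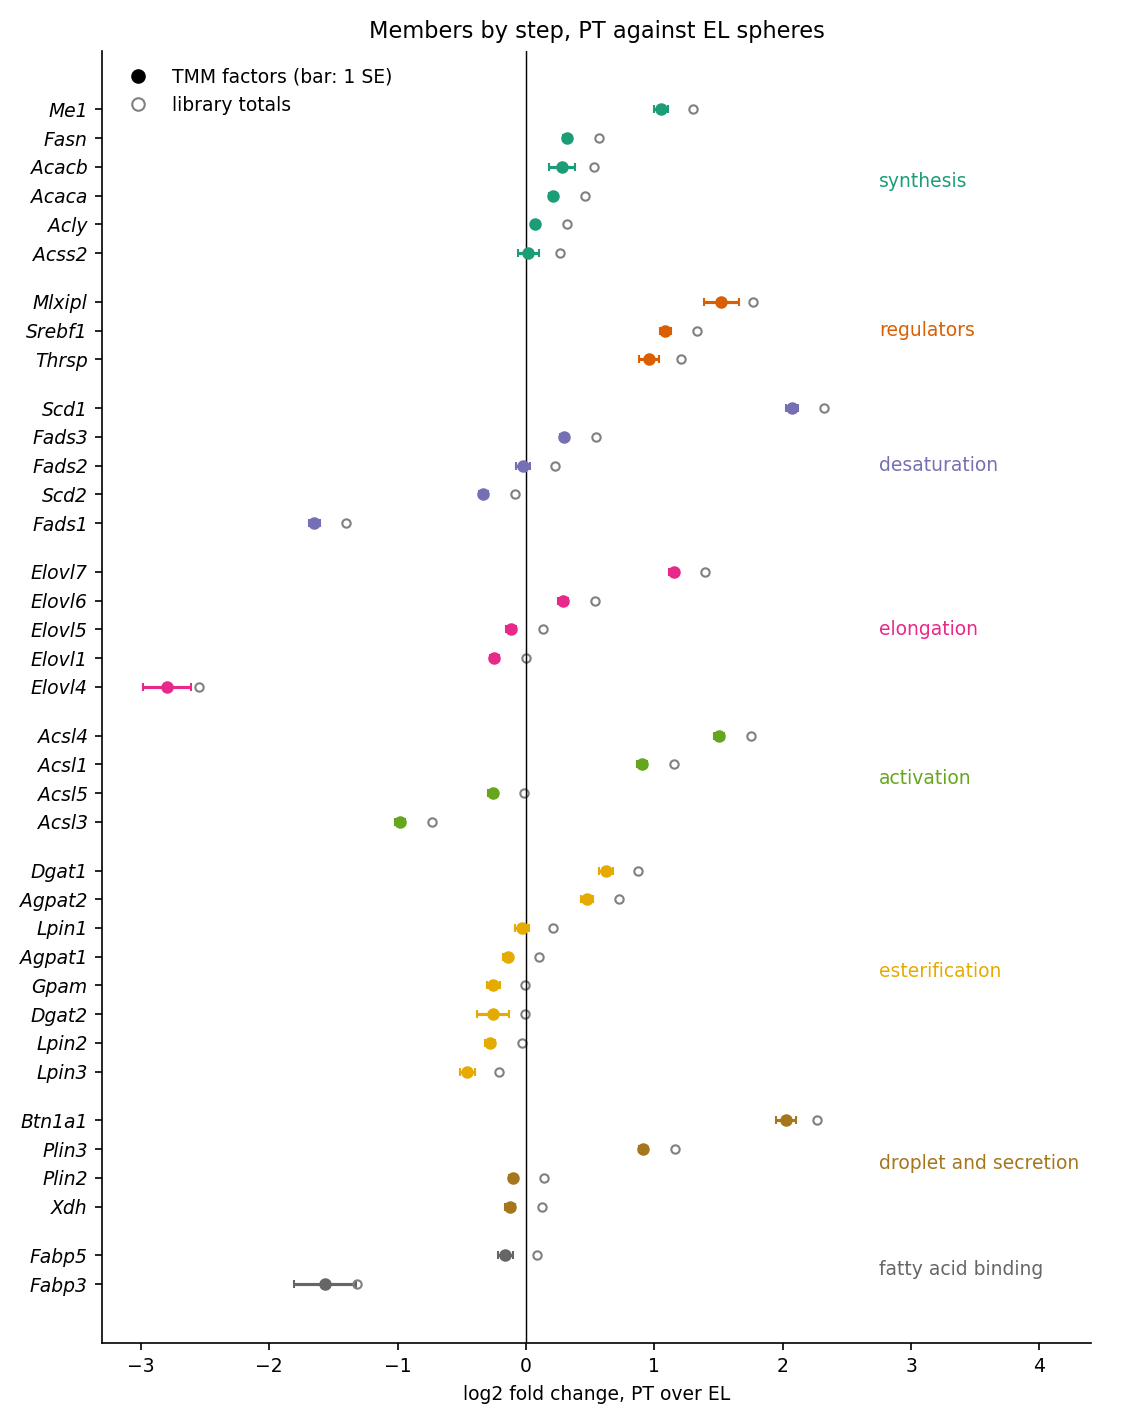
Log2FC of PT over EL for the 37 tested members, grouped by step, with 1 standard error (filled points, TMM factors) and with library totals (open points). Scd1 lies highest at 2.07 and Elovl4 lowest at -2.79, and the open points of Fads2, Elovl5, Agpat1, Lpin1, Plin2, Xdh and Fabp5 lie on the other side of 0 from the filled ones.

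The 6 synthesis genes differed little except for Me1. Me1, malic enzyme, which supplies NADPH for chain building, was at 51.1, 59.1 and 61.6 CPM in EL replicates 1 to 3 and at 117.5, 117.0 and 121.6 CPM in PT replicates 1 to 3. Every PT library stood above every EL library, and the log2FC was 1.05 (SE 0.055; adjusted p = 1.01e-09 by edgeR). Fasn, the synthase itself, was at 205.3, 204.1 and 205.3 CPM in EL and at 258.6, 254.7 and 253.9 CPM in PT. That is a rise of 0.32 on the log2 scale (SE 0.028; adjusted p = 2.13e-07), small but larger than the spread within each group. Acaca rose by 0.21 (SE 0.033).

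Acacb, the carboxylase form at mitochondria, passed narrowly at 0.28 (adjusted p = 0.0206). Without EL replicate 3, PT replicate 1 or PT replicate 3 its adjusted p was 0.0763, 0.0598 or 0.0528, in the 5 complete files 0.0542, and with TMM over genes changed under 4-fold 0.0651. Acly was also near the threshold, at 207 ± 2.77 CPM in EL and 218 ± 1.97 in PT (mean ± SD, n = 3 each; log2FC 0.074). Its call ended with DESeq2 (adjusted p = 0.0893), RLE factors (0.0565), a filter of 50 counts in 3 libraries (0.0564) and TMM factors over genes changed under 4-fold, which gave a log2FC of 0.0072 (0.824). It also ended without EL replicate 2, PT replicate 1 or PT replicate 3 (0.0978, 0.0764 and 0.0850). Acss2, which makes acetyl-CoA from acetate, was not called (log2FC 0.018; adjusted p = 0.843).

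All 3 regulators rose. Srebf1, which encodes SREBP-1, was at 497.6, 484.2 and 444.7 CPM in EL and at 1037, 988 and 1004 CPM in PT. The groups lay far apart, with a log2FC of 1.09 (SE 0.042; adjusted p = 3.94e-11). Mlxipl, which encodes the glucose-responsive factor ChREBP, was low throughout, at 1.13, 1.26 and 1.17 CPM in EL and at 3.30, 3.46 and 3.47 CPM in PT. Its counts were 46, 50 and 47 in EL and 169, 185 and 193 in PT (log2FC 1.52, SE 0.14). Thrsp, the Spot 14 protein of lipogenic tissues, rose from 19.4 ± 1.10 to 37.8 ± 4.49 CPM (log2FC 0.96, SE 0.078). The counts of Srebf1 do not tell its SREBP-1a and SREBP-1c forms apart, since 1 transcript row stands for the gene.

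The promoter table of RefSeq (GRCm38.p6) held windows for 30 of the 39 members, each with 250 bases before and 50 after a start. These windows were searched on both strands for a sterol response element (SRE, TCACNCCAC), an E-box (CACGTG) and an NF-Y box (CCAAT). The 9 members without a window, among them Scd1, Scd2, Fads1, Dgat1 and Btn1a1, were not searched. The stretches below are shown because, of the members searched, Mlxipl and Acsl1 were the 2 with an SRE match. Both were higher in PT. Fasn is shown as the namesake enzyme. Each holds the 150 bases before a start, and the capitals mark matches on either strand.
Mlxipl, chr5:135106741-135106890, plus strand: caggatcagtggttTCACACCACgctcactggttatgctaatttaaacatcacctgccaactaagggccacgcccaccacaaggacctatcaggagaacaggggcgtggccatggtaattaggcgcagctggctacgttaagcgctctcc
Acsl1, chr8:46490816-46490965, plus strand: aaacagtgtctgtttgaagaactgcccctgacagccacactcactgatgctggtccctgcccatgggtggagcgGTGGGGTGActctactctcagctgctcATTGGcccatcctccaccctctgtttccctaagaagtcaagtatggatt
Fasn, chr11:120824548-120824697, minus strand: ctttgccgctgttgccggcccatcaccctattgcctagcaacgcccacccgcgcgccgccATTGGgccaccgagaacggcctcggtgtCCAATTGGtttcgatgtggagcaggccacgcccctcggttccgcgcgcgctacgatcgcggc

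In Fasn the run of 8 capitals holds an NF-Y box on each strand, which overlap. All 3 stretches lie inside the span of their gene in RefSeq, which starts at 135089890 for Mlxipl and 46471037 for Acsl1 on the plus strand and at 120825166 for Fasn on the minus strand, so each stands before an internal start. An SRE was found in 6.67% of the members with a window and in 1.44% of all genes, an E-box in 20.0% and 8.09%, and an NF-Y box in 66.7% and 41.1%. All genes here are the 27025 symbols with a window, expressed or not, and a gene can have several windows. Per window the shares were 4.76% and 1.24% for the SRE, 14.3% and 7.15% for the E-box, and 50% and 37.4% for the NF-Y box. By direction, an NF-Y box stood in 10 of 15 members called higher and in 9 of 11 called lower, and an E-box in 1 of 15 and 5 of 11. These matches describe letters in the windows and were not tested.

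Scd1 gave the highest fold change of the module, while its paralog Scd2 fell. Both encode stearoyl-CoA desaturases, which place the first double bond in saturated chains, and both lie on chromosome 19 (Scd1 at 44394450 to 44407709, Scd2 at 44293676 to 44306864, GRCm38). Scd1 was at 1456, 1645 and 1504 CPM in EL and at 6249, 6558 and 6546 CPM in PT. The lowest PT library lay far above the highest EL library (log2FC 2.07, SE 0.047; adjusted p = 1.75e-13). Scd2 was at 1024, 1008 and 995 CPM in EL and at 818, 772 and 815 CPM in PT, lower in every PT library (log2FC -0.33, SE 0.033).

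The share of Scd1 in the summed CPM of the 39 members was 25.2% in EL and 51.0% in PT. Per kilobase of transcript Scd1 stood first of the 39 in both groups, at 318 and 1335 CPM per kilobase. Behind it in EL came Plin2 (220), Scd2 (185), Acsl4 (133) and Srebf1 (111). In PT the order was Acsl4 (378), Srebf1 (235), Plin2 (205) and Scd2 (147).

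The 2 desaturase transcripts are alike, so reads could be shared between them. Their coding sequences were identical at 89.6% of aligned positions in the GENCODE transcripts. The last 90 coding bases before the stop codon show how they differ, with capitals at the 12 differing bases.
Scd1, coding bases 976 to 1065: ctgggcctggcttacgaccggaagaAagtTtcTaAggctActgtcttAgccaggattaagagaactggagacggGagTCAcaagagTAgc
Scd2, coding bases 985 to 1074: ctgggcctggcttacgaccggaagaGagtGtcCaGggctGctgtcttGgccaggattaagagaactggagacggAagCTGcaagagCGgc

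Over the whole Scd1 transcript 145 of 4783 stretches of 50 bases, or 3.03%, also occurred in Scd2, with a longest identical run of 147 bases. How the authors treated reads that fit both is not given in the sources used here, and the values of Scd1 and Scd2 are uncertain to that extent.

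The polyunsaturated fatty acid desaturases went apart too. Fads1, the delta-5 desaturase that makes arachidonic acid, was at 169.1, 151.3 and 158.1 CPM in EL and at 49.98, 50.28 and 52.15 CPM in PT. It fell in every PT library to under the lowest EL value, with a log2FC of -1.65 (SE 0.042; adjusted p = 6.66e-13). Fads2, the delta-6 desaturase that acts before it and lies beside it on chromosome 19, was not called (81.3 ± 6.09 and 80.2 ± 4.59 CPM; adjusted p = 0.724). Fads3 rose by 0.30 (SE 0.031).

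Among the elongases, Elovl7 rose and Elovl4 fell by over 2-fold. Elovl7, which extends saturated long chains, was at 23.6, 24.3 and 23.9 CPM in EL and at 54.0, 52.4 and 53.0 CPM in PT (log2FC 1.15, SE 0.039; adjusted p = 1.00e-11). Elovl4, which makes very long chains and is best known from retina and skin, had 132, 137 and 124 counts in EL and 29, 18 and 28 counts in PT. That was 3.26 ± 0.181 CPM in EL and 0.469 ± 0.118 in PT, a log2FC of -2.79 (SE 0.19; adjusted p = 1.51e-08). The elongase gene with the highest CPM was Elovl1, at 111.3, 103.3 and 105.8 in EL and at 91.8, 88.4 and 89.7 in PT.

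Elovl1, a broad elongase of very long chains, was thus lower in PT (log2FC -0.25, SE 0.035), but did not pass with library totals (adjusted p = 0.972). Elovl6, which takes palmitate to stearate, rose by 0.29 (SE 0.041). Elovl5, which extends polyunsaturated chains, was lower (-0.12, adjusted p = 0.0201), was higher with library totals (0.13), and was not called without PT replicate 2 (adjusted p = 0.113) or with upper-quartile factors (0.199). Elovl2 had 2, 4 and 2 counts in EL and 2, 0 and 1 in PT, and Elovl3 had 1 count in each group, so neither could be compared at this depth.

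Acsl4 and Acsl1 rose and Acsl3 and Acsl5 were lower among the acyl-CoA synthetases. Acsl4, on the X chromosome (142317993 to 142390802), prefers arachidonic acid and related chains and is known for its part in ferroptosis. It was at 625, 683 and 677 CPM in EL and at 1909, 1793 and 1927 CPM in PT. The PT libraries formed a tight group well above EL, with a log2FC of 1.504 (SE 0.042; adjusted p = 1.57e-12). In the 5 complete files, which hold all 3 transcript rows of Acsl4, the log2FC was 1.456. Acsl1, a synthetase of fat and liver, rose from 29.9 ± 0.385 to 56.0 ± 1.84 CPM (log2FC 0.91, SE 0.040).

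Acsl3, which sits on nascent lipid droplets, fell from 54.7 ± 1.97 to 27.7 ± 0.0756 CPM (log2FC -0.98, SE 0.040; adjusted p = 7.95e-11). Acsl5, at mitochondria and endoplasmic reticulum, was lower at -0.26 (SE 0.032), and did not pass with library totals (adjusted p = 0.705). The gene span of Acsl3 shares 9777 bases with that of Utp14b, and the span of Acaca 19116 bases with that of Gm11437, introns included. How much of this is exonic was not measured.

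**Figure D2:**
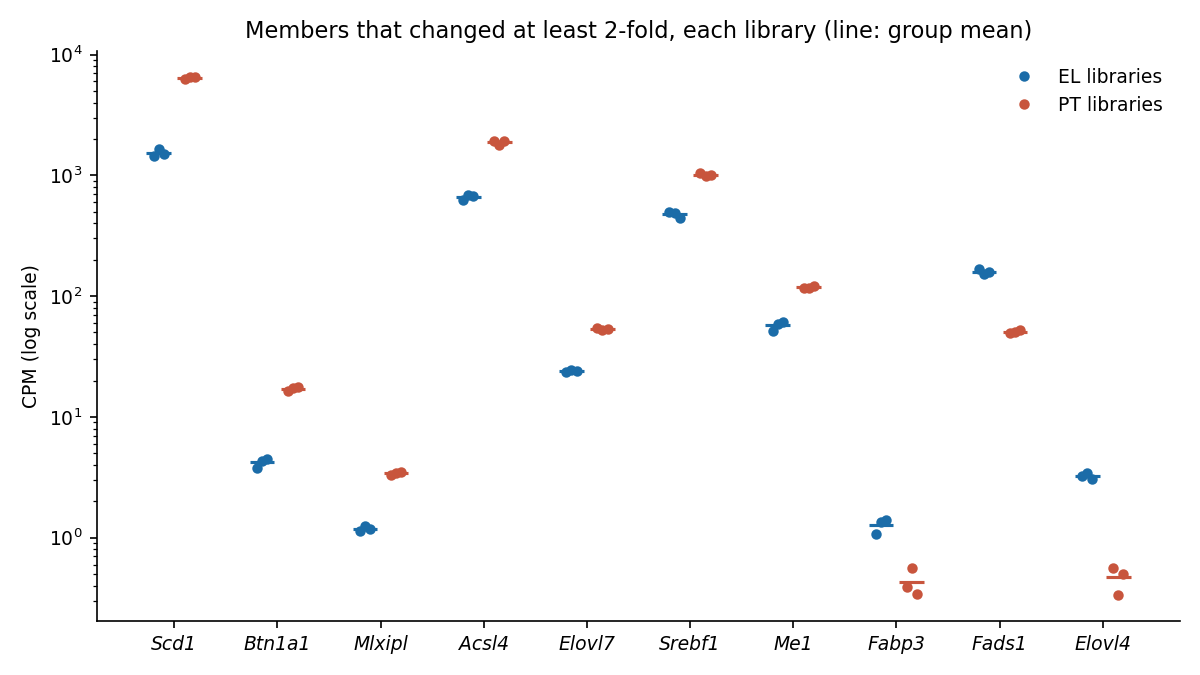
CPM on a log scale in each library (points) and group means (lines) for the 10 members with a log2FC of at least 1 in either direction. The groups do not overlap for any of the 10, which were picked by their change in these same libraries, nor for 82.7% of all genes. Scd1 lies at 1456 to 1645 CPM in EL and 6249 to 6558 in PT.

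None of the esterification genes reached 2-fold. Of 8 genes 2 were higher and 4 lower, where 39.9% of all genes were higher and 40.8% lower. The sum of the 8 was 285 ± 4.62 CPM in EL and 281 ± 0.485 in PT. Dgat1, which completes triglycerides in the endoplasmic reticulum, rose from 28.6 ± 2.63 to 44.0 ± 1.10 CPM (log2FC 0.62, SE 0.058; adjusted p = 3.80e-07). Dgat2, the unrelated enzyme for the same reaction, was low, with 120, 150 and 145 counts in EL and 147, 161 and 154 in PT. It was not called (log2FC -0.26; adjusted p = 0.0798), but was called lower without EL replicate 1 (-0.36; adjusted p = 0.0165), in the 5 complete files (0.0155) and with TMM over genes changed under 4-fold (0.0328).

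Agpat1, an acyltransferase for lysophosphatidic acid, had the highest CPM of this step, at 94.5, 92.1 and 90.7 in EL and at 82.0, 86.4 and 82.9 in PT. The PT libraries were lower (log2FC -0.14; adjusted p = 0.00180), while with library totals the value turned to 0.10. Agpat2, the form known from inherited loss of fat, rose by 0.47 (SE 0.048). Gpam, the mitochondrial enzyme of the first acylation, was lower at -0.25 (SE 0.051) and Lpin2 at -0.28 (SE 0.041), and neither passed with library totals (adjusted p = 0.903 and 0.453). Lpin3 fell by 0.46 on the log2 scale (SE 0.056). Lpin1, the phosphatidate phosphatase of fat tissue, was not called (28.5 ± 2.18 and 27.8 ± 0.782 CPM).

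The genes of droplets and milk fat secretion were led by Btn1a1. Btn1a1 encodes butyrophilin, a membrane protein of milk fat globules, and was at 3.81, 4.33 and 4.51 CPM in EL and at 16.5, 17.4 and 17.6 CPM in PT. All PT libraries lay above all EL libraries (log2FC 2.02, SE 0.078; adjusted p = 4.58e-11). Btn1a1 and Scd1 (log2FC 2.07, SE 0.047) were the 2 members above the median log2FC of the luminal epithelial markers, 2.008. For Btn1a1 the excess was smaller than its SE, which does not measure the spread among the markers. The log2FCs of these markers ran from 1.277 to 2.522. Scd1 and Btn1a1 lay within that range, and so did Mlxipl and Acsl4. Whether these members rose with the luminal epithelial cells was not tested. Xdh, the oxidoreductase that partners butyrophilin on the globule, had a mean of 174 ± 8.37 CPM in EL and of 159 ± 1.42 CPM in PT, lower by the test (log2FC -0.12; adjusted p = 0.00699) and higher with library totals (0.12).

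Plin2, the coat protein of most droplets outside fat tissue, was at 399.6, 423.1 and 423.2 CPM in EL and at 388.7, 389.4 and 381.5 CPM in PT. The groups did not overlap, but the log2FC of -0.10 (adjusted p = 0.00941) turned to 0.14 with library totals. Plin3, a droplet coat protein that is also free in the cytosol, rose from 96.7 ± 2.20 to 182 ± 2.39 CPM (log2FC 0.91, SE 0.031; adjusted p = 1.13e-11).

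The 2 fatty acid binding proteins were lower in PT, where Fabp5 turned with library totals. Fabp3, the heart form, had 44, 54 and 56 counts in EL and 20, 30 and 19 counts in PT, or 1.28 ± 0.172 and 0.431 ± 0.116 CPM (log2FC -1.56, SE 0.24; adjusted p = 5.16e-05). Fabp5, the epidermal form, was at 26.6, 30.7 and 28.9 CPM in EL and at 25.0, 26.5 and 25.6 CPM in PT, a log2FC of -0.16 (adjusted p = 0.0171) that became 0.087 with library totals. Its call also ended without EL replicate 2, PT replicate 1 or PT replicate 3 (adjusted p = 0.0860, 0.0683 and 0.0511) and with upper-quartile factors (0.0925).

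A ratio of 2 members within a library does not depend on scaling between libraries, and 15 pairs of related genes were compared in this way. The groups did not overlap for 13 pairs. Exact two-sided permutation tests gave p = 0.1 for these, the lowest that 3 libraries against 3 allow (0.115 after Benjamini-Hochberg adjustment over the 15). Of all single genes 82.7% did not overlap either, and the share among unrelated pairs was not measured. The count of 13 thus says little by itself. The count ratio of Scd1 to Scd2 was 1.52 in EL and 8.05 in PT, so it rose 5.30-fold. Acsl1 to Acsl3 went from 0.547 to 2.02, and Fads2 to Fads1 from 0.510 to 1.58, so that in both pairs the gene with more counts changed. Plin2 to Plin3 went from 4.30 to 2.12, Elovl1 to Elovl7 from 4.46 to 1.69 and Dgat1 to Dgat2 from 8.29 to 15.2.

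Acaca to Acacb (15.1 and 14.3) and Lpin2 to Lpin3 (1.81 and 2.04) overlapped between the groups (exact permutation p = 0.4 and 0.2). Shared sequence was small outside the Scd pair. Of the other 14 pairs, Fads2 with Fads3 alone had identical stretches of 50 bases, 0.161% of those in Fads2.

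**Figure D3:**
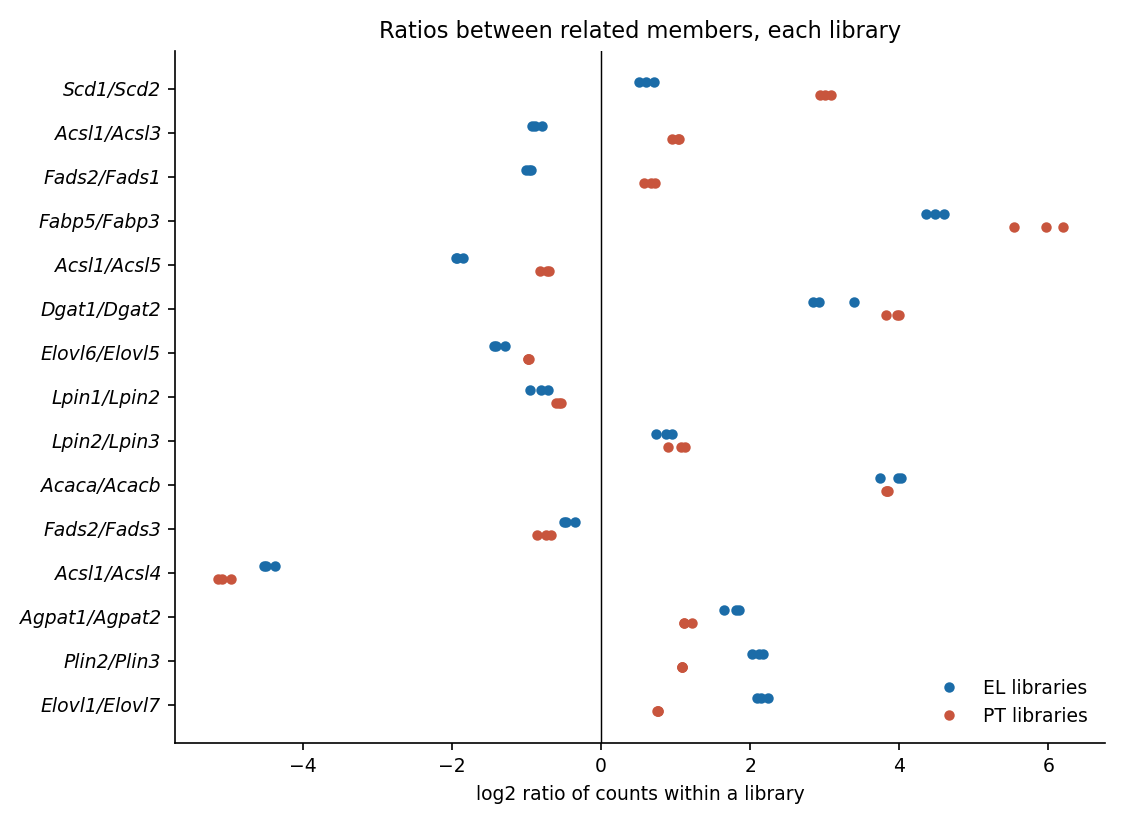
Log2 ratio of counts of 2 related members within each library, for 15 pairs, with EL in blue and PT in red, and 0 where both genes have the same count. Scd1/Scd2 lies at 0.51 to 0.71 in EL and 2.93 to 3.09 in PT, and Acsl1/Acsl3 and Fads2/Fads1 cross 0 between the groups.

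Other genes of lipid metabolism, from lists drawn up by role, give the setting. The counts use TMM factors, and values below 0 by clearly less than the 0.25 shift turn positive with library totals. Among all genes 39.9% were called higher and 40.8% lower, so the counts for each list below say little by themselves. Of 11 genes that supply citrate and NADPH 8 were higher and 3 lower, and none by 2-fold. Idh1, cytosolic isocitrate dehydrogenase, fell (log2FC -0.63, SE 0.041), as did the citrate carrier Slc25a1 (-0.29), while Mdh1 and mitochondrial Idh2 rose by 0.40 and 0.39. Of 13 genes around SREBP and lipogenic control 4 were higher and 8 lower. Insig2, which holds SREBP in the endoplasmic reticulum, rose by 0.55 (SE 0.051), and Insig1, which does the same and is itself a SREBP target, was lower at -0.43 (SE 0.062). Of the liver X receptor genes, Nr1h3 fell from 13.3 ± 1.76 to 8.13 ± 0.529 CPM (log2FC -0.71). Nr1h2, the one with more counts, rose from 102 ± 2.79 to 123 ± 4.37 CPM (log2FC 0.27). Srebf2 was at -0.28, and Mid1ip1, a partner of Thrsp, at -0.54.

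The list of elongase partners, which also held genes of mitochondrial fatty acid synthesis, changed little. Of 9 tested genes 4 were higher and 1 lower. Tecr, the last reductase of the elongation cycle, rose by 0.59 (SE 0.042). Acsf3, a mitochondrial malonyl-CoA synthetase outside that cycle, rose by 0.75 (SE 0.083). Of 14 other acyltransferases and related enzymes 6 were higher and 7 lower. Mboat1 and Mboat2, which remodel phospholipids, rose from 12.4 ± 1.58 to 52.5 ± 1.97 CPM and from 15.2 ± 0.694 to 40.1 ± 1.33 CPM. Agpat4 fell from 12.1 ± 0.305 to 0.834 ± 0.0887 CPM (log2FC -3.85, SE 0.11).

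Genes of droplet assembly and lipolysis were lower in 7 of 13 tested and higher in 3. Pnpla2, the triglyceride lipase ATGL, rose from 58.5 ± 2.68 to 173 ± 4.10 CPM (log2FC 1.56, SE 0.038; adjusted p = 4.05e-13). Its inhibitor G0s2 fell (-0.74, SE 0.074), and so did monoglyceride lipase, Mgll, from 134 ± 3.09 to 69.0 ± 0.421 CPM. Bscl2, the seipin of budding droplets, had a log2FC of -0.73 and Pnpla3 of -1.49.

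Fatty acid uptake genes were lower in 6 of 10 tested and higher in 2. Lpl, the lipoprotein lipase, fell from 388 ± 38.4 to 34.3 ± 4.41 CPM (log2FC -3.50, SE 0.088) and Fabp4 from 22.4 ± 2.04 to 2.33 ± 0.183 CPM. Gpihbp1, which anchors that lipase on capillary endothelium, had 209, 203 and 189 counts in EL and 0, 1 and 0 in PT, beside the fall of the endothelial markers. Dbi, the acyl-CoA binding protein, rose from 72.2 ± 0.618 to 386 ± 3.28 CPM (log2FC 2.42, SE 0.030; adjusted p = 7.29e-16), more than any member. Cd36 was not called (59.7 ± 5.64 and 54.9 ± 5.34 CPM).

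Lpl and Fabp4 also belong to the adipocyte markers, of which 4 of 6 tested fell and 1, Lipe, rose. Their summed level ran from 443 to 504 CPM in EL and from 96.0 to 115 CPM in PT. The other 6 markers, Adipoq, Plin1, Cidec, Lep, Retn and Cfd, had between 0 and 8 counts in a library, with Lep at 0 throughout. Of the milk genes, 5 of 7 alveolar markers rose, among them Csn3 (690 ± 32.2 to 3595 ± 50.2 CPM) and Lalba. Csn2 fell and Wap was not called, but both were barely detected. Csn2 had 35, 31 and 19 counts in EL and 6, 12 and 3 in PT. Wap had 8, 21 and 9 counts in EL and 16, 24 and 18 in PT. Lalba, which rose, was also barely detected in EL, with 24, 33 and 19 counts, and had 880, 769 and 915 in PT. The part of either cell state in the results was not tested.

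**Figure D4:**
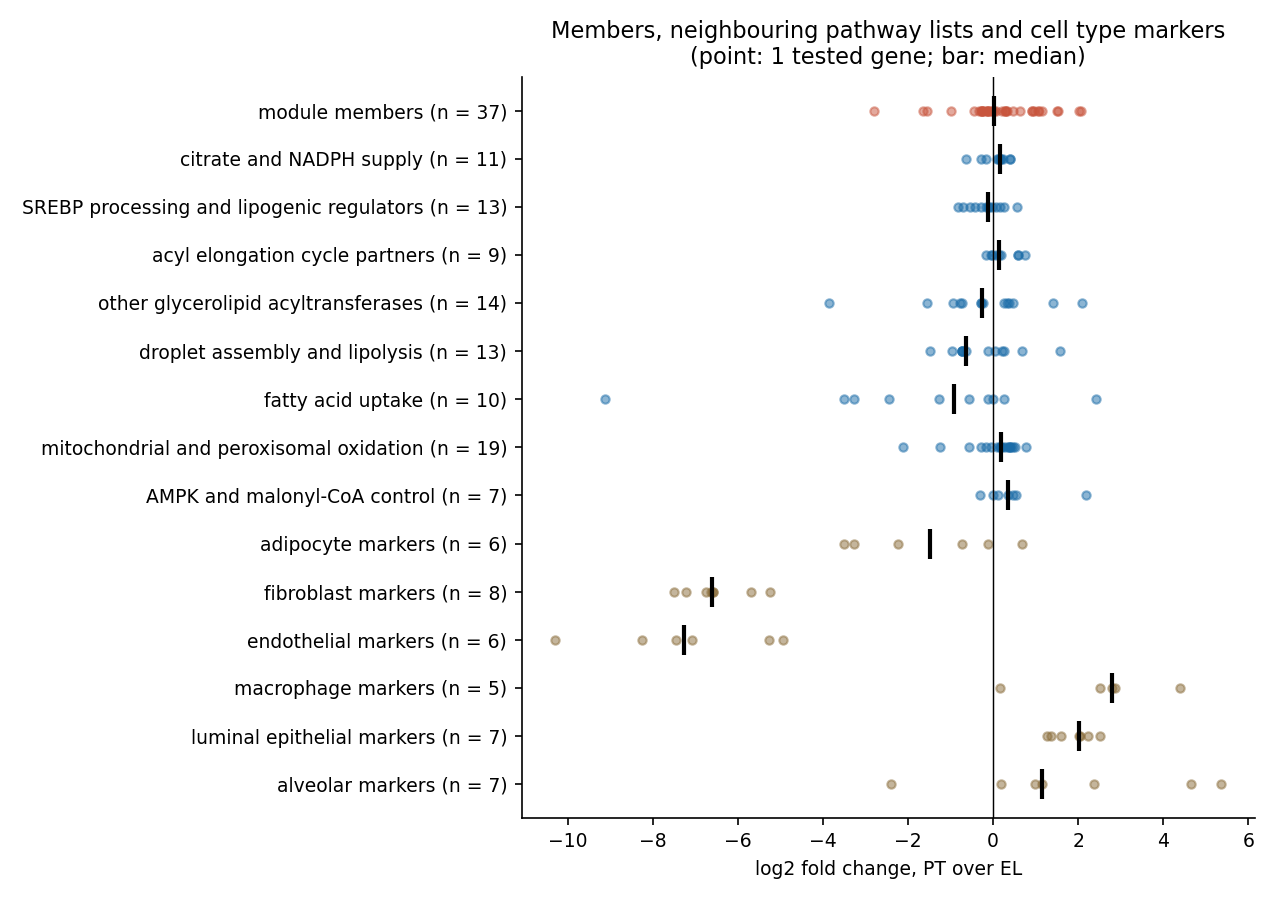
Log2FC of PT over EL for the tested genes of the module (red), of 8 neighbouring pathway lists (blue) and of 6 marker lists (brown), with the median of each list as a bar. The members scatter around 0 (median 0.018), the fibroblast markers lie near -6.61 and the luminal epithelial markers near 2.01.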

How the data were processed

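What the authors deposited for each library is a table of raw counts, 1 whole number per RefSeq transcript. Per the submitters' processing notes STAR, featureCounts and DESeq2 were used with the builds mm10 and hg19. No version, strand setting or read length is stated in the labels. The table of EL replicate 1 stops inside a row after 27664 rows, so rows present in all 6 tables were used, with 1 transcript per symbol.

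Counts were fitted over all genes with edgeR 4.0.16 in R 4.3.3 (filterByExpr, TMM factors of 0.914 to 1.09, quasi-likelihood test, Benjamini-Hochberg over 13844 genes, threshold 0.05). Log2 fold changes are PT over EL, and the SE is the log2 fold change divided by the square root of F. Simulated counts for this comparison, over 13773 genes, gave back 96.0% of genes changed 1.25-fold and 100% of those changed 2-fold. They had 1 common dispersion and 100 changed genes per fold, with mean counts of at least 50, equally up and down. Genes with fewer counts and a shift of scaling between the groups, as between TMM and library totals, were not simulated. The recovery does not extend to these. Replicates of a group differed by more than counting noise. CPM per kilobase used GENCODE M21 transcript lengths.

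Named in full are members with a log2 fold change of at least 1 in size and the one with the highest CPM in each step, and up to 4 genes with the smallest p-value per list. Insig1, Srebf2, G0s2, Cd36, Lipe, Prkaa1, Cpt1b, Cpt2, Slc25a20 and the milk genes were named after their values were seen. Members and lists were chosen with earlier results of these data known. Alternatives were other scalings, DESeq2 1.42.0, limma-voom (limma 3.58.1), other count filters, summed transcripts, a replicate block, the 5 complete files and each library left out. A 2-fold minimum and TMM over genes changed under 4-fold were chosen after seeing the data.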

Additional observations from a re-analysis of the deposited data

How the results depend on the processing

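Of the 37 tested members 21 kept their call and direction under all 17 alternatives, among them 14 of the 15 with a log2FC of at least 0.5 in size. The other of these, Fabp3, kept its call in the 16 that tested it and failed the filter of 50 counts in 3 libraries. The test against a 2-fold minimum gave 1010 genes higher and 2391 lower, with 6 and 3 members among them. With library totals 6 members were lower in place of 15, and the log2FCs of 7 turned positive: Fads2 0.23, Elovl5 0.13, Agpat1 0.10, Lpin1 0.21, Plin2 0.14, Xdh 0.12 and Fabp5 0.087. The scaling itself moves genes by a median of 0.25. With upper-quartile factors the calls of Plin2 and Xdh also ended. With upper-quartile factors Fads2 was at 0.035 and Lpin1 at 0.024, and in the 5 complete files at 0.037 and 0.025. With 1 library left out Fads2 ran from -0.056 to 0.043 (above 0 without EL replicate 1 or PT replicate 2), Lpin1 from -0.078 to 0.031 (above 0 without EL replicate 1) and Acss2 from -0.036 to 0.088 (below 0 without PT replicate 2). With TMM over genes changed under 4-fold Acss2 was at -0.048. None of these 3 genes was called with TMM. The 15 ratios between members kept their direction under all alternatives run. The labels do not say whether equal replicate numbers mark a shared animal, litter or day. Correlations of same-numbered deviations were 0.022, 0.0084 and -0.0022, within the -0.031 to 0.027 of the other pairs. Such correlations cannot settle whether libraries were paired. With a replicate block 18 members were higher and 15 lower, as without it, among 5539 genes higher and 5664 lower. The counts of members called with each library left out ran from 16 to 18 higher and 14 to 16 lower.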

Other observations

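Genes of fatty acid oxidation moved mostly by small steps. Of 19 tested genes of mitochondrial and peroxisomal oxidation 13 were higher in PT and 4 lower, where 39.9% of all genes were higher and 40.8% lower. Their median log2FC was 0.18, a size that the choice of scaling can shift. The 2 genes lower by over 2-fold belong to the carnitine palmitoyltransferase family, some members of which admit fatty acids to mitochondria. Cpt1a fell from 96.9 ± 0.663 to 41.0 ± 0.625 CPM (mean ± SD, n = 3 each; log2FC -1.24, SE 0.032; adjusted p = 7.80e-13 by edgeR), and Cpt1c, the form of the nervous system, from 22.4 ± 1.75 to 5.16 ± 0.487 CPM (-2.12). Of the same family Cpt2 was at -0.17 and Cpt1b was not called, and the carnitine carrier gene Slc25a20 rose by 0.37. The dehydrogenase gene Hadh rose by 0.53 (SE 0.032) and the thiolase gene Acaa2 was at -0.56 (SE 0.038).

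AMP-activated kinase phosphorylates and inhibits acetyl-CoA carboxylase. Of 7 tested genes of this control 4 were higher and 1 lower, where 39.9% of all genes were higher and 40.8% lower. Prkaa2, the alpha-2 catalytic subunit, rose from 5.48 ± 0.296 to 24.9 ± 2.07 CPM (log2FC 2.19, SE 0.079; adjusted p = 2.13e-11 by edgeR), while Prkaa1, the alpha-1 subunit, was not called (58.8 ± 0.772 and 58.7 ± 0.799 CPM; adjusted p = 0.916). The upstream kinase gene Stk11 and Prkag2 rose by 0.46 and 0.53.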
